A study of Rattus norvegicus with 6 samples.

Results

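The nuclear-encoded subunits of the respiratory chain and of ATP synthase, with cytochrome c, were followed across 6 one-colour rat expression arrays. Members were taken by array symbol: names that begin like a subunit of complex I (Nduf a, b, c, s or v), II (Sdh), III (Uqcr), IV (Cox4 to Cox8) or V (Atp5), with Cyc1 and Cycs and without assembly factors. There were 88 such genes of 19958 on the array, carried by 109 of 30367 probes, and the probe with the highest mean signal stood for each gene. Of the 88, 36 belong to complex I, 4 to complex II, 9 to complex III, 16 to complex IV and 15 to ATP synthase, and 1 is cytochrome c. The other 7 are copies, pseudogenes or factors whose symbols only look like those of subunits.

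FAO cells, a rat hepatoma line, received 100 µM deferoxamine, an iron chelator, or no deferoxamine for 24 h. Wistar rats, called mice in part of the labels, ate AIN-93G, a purified diet, without or with iron for 4 weeks, and their liver and kidney were taken. Each group was 1 array of RNA pooled from 3 cultures or 6 animals, and all 6 arrays shared 1 slide. No difference below therefore has a replicate check or a test, and ± marks only a standard error from the scatter of repeated spots. FAO is a single line, and bulk RNA cannot tell fewer cells of a type from less RNA per cell.

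Complexes I and II pass electrons from NADH and succinate to ubiquinone, complex III passes them on to cytochrome c, and complex IV hands them to oxygen, while ATP synthase spends the proton gradient that complexes I, III and IV build. Electrons travel through iron-sulfur clusters and hemes, so a few nuclear-encoded subunits hold iron themselves, whereas the hemes of complex IV sit in subunits encoded by mitochondrial DNA, which are not members. Core subunits carry out catalysis, accessory subunits assemble and steady the complex around them, and kidney tubules are rich in mitochondria.

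Levels are given as scaled signal, an intensity in arbitrary units after each array was brought to a common 75th percentile, and compare a probe only with itself on other arrays. Differences are on the log2 scale, and a gene was called when it stood at least 2-fold apart. Of the 88 members, 80 were above background on all 6 arrays and 1, the testis isoform Cox8c, on none. Cox6a2, Cox8b, Uqcrq, Dmac2l, Ndufb6, Atp5mc3 and Ndufa1 were below it on some arrays. Between 37.7% and 48.8% of all probes were above background, and no spot was saturated. The deprivation and tissue labels held: Tfrc, the transferrin receptor gene that rises in iron-poor cells, was at least 2-fold higher in all 3 iron-deprived arrays, and 10 of 10 kidney tubule and 10 of 10 hepatocyte markers parted kidney from liver on both diets. Some arrays had patches where repeated spots of a probe disagreed. Of 264 blocks of spots, 31 were noisy in control liver, 13 in FAO cells with deferoxamine, 6 in control kidney, 1 in iron-free kidney and 0 elsewhere.

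The promoters of the 5 members that stood at least 2-fold apart between kidney and liver on both diets are shown because the same call was made there in separate pairs of arrays, though Cox8b and Uqcrq are dim and were each below background on a control array. Each is the 250 bases before the gene start on the gene's own strand, from RefSeq (GRCr8). Capitals mark the NRF1 motif (GCGCA and GCGC with any base between), the ETS motif CCGGAAG that GABPA binds, the estrogen-related receptor element AAGGTCA and the YY1 motif AAGATGGC, each searched on both strands. Factors of these families are known regulators of respiratory chain genes.
Atp5po: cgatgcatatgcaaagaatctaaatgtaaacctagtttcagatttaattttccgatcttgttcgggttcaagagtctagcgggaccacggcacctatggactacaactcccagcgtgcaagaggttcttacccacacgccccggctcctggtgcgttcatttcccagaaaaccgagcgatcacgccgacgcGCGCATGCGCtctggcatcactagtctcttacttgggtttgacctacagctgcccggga
Cox8b: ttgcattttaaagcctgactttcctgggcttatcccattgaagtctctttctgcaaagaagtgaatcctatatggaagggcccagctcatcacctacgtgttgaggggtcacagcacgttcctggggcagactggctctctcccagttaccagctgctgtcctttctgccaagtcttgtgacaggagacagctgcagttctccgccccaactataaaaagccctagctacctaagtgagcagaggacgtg
Cycs: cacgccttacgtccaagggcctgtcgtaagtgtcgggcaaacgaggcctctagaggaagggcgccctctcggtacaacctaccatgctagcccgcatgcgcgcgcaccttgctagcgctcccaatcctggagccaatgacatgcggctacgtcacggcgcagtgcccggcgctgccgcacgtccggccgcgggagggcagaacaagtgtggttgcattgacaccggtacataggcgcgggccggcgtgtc
Ndufs1: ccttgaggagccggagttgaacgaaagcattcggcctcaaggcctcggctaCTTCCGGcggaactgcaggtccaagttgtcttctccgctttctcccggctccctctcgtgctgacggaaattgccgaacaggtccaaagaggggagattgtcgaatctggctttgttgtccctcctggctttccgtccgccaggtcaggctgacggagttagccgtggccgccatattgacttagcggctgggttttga
Uqcrq: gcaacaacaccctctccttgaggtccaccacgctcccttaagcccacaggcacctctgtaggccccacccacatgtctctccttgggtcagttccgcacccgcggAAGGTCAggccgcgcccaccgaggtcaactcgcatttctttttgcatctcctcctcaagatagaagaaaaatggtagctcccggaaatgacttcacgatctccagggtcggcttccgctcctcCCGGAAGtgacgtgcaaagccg
All 5 lie on the minus strand, at chr11:44657484-44657733 for Atp5po (gene ID 192241), chr1:205408274-205408523 for Cox8b (25250), chr4:80984768-80985017 for Cycs (25309), chr9:72073606-72073855 for Ndufs1 (301458) and chr10:38089979-38090228 for Uqcrq (497902). Atp5po held an NRF1 motif starting 59 bases before the gene start, and Ndufs1 an ETS motif at 199 bases. Uqcrq held a receptor element at 145 bases and an ETS motif at 22 bases. None of these motifs occurred letter for letter in the windows of Cox8b and Cycs. Only exact matches were marked or counted, so near matches are missed. The Cycs window holds ccgcatgcgc, which departs from the NRF1 motif only in its first letter.

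RefSeq promoters were found for 69 of the 81 subunits and cytochrome c. The NRF1 motif stood in 10 of the 69 windows (14.5%), against 4.17% of all 27457 promoters. The ETS motif stood in 18 windows (26.1%), against 7.74%, and the receptor element in 7 (10.1%), against 3.77%. The YY1 motif was found in 2 windows (2.90%, against 1.69%). The hypoxia response core ACGTG stood in 18 windows (26.1%, against 16.9%) and the GC box GGGCGG in 23 (33.3%, against 32.4%). Windows of the subunits had a median GC content of 56%, against 52% for all promoters, and motifs were counted separately even where they overlap.

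In FAO cells, the subunits were slightly lower with deferoxamine, mainly in complexes I, II and V. Of 86 members measured, 62 were below 0 and 24 above, with a median of -0.15, against 0.03 over 10695 genes. At least 2-fold apart were 4 members, all lower, where 4.05% of all genes were higher and 6.44% lower. With spots in noisy blocks left out, the 4 became 0. In all, 88.4% of the members lay within 0.5 of 0, against 72.6% of all genes. Among 1429 bright genes, those at or above the 25th percentile of the members' signal, the share was 84.3%. The members' median stayed between -0.22 and -0.10 over 12 settings of the processing.

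Complex I stood lowest, with 31 of 36 subunits below 0 in deferoxamine-treated cells and a median of -0.22. All 4 subunits of complex II were below 0 (median -0.18), as were 13 of 15 subunits of ATP synthase (-0.17). In complex III 6 of 9 were below 0 (-0.06). Complex IV was the exception, with 8 of 14 measured subunits above 0 (0.09). The 8 included Cox6a2, dim at 28.4 with deferoxamine and below background without. They also included Cox6b2 and Cox4i2, both within 2 standard errors of 0, so the median of complex IV leans in part on minor forms. The medians of complexes I, II and V stayed below 0 in all 12 settings, while those of III and IV took either sign. The median of complex I minus that of complex IV was -0.31 and lay between -0.36 and -0.10 over the settings. Both the 7 core subunits of complex I (median -0.24) and its 29 accessory ones (-0.19) were low.

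The 7 iron-sulfur subunits were all below 0 with deferoxamine, and 3 of the 4 heme-binding ones were. Ndufs1, the core subunit of complex I that carries several iron-sulfur clusters, had a signal of 5197 with deferoxamine and 6132 without (-0.24 ± 0.17). Sdhb, which carries the clusters of complex II, had 2899 with deferoxamine and 3160 without (-0.12 ± 0.17). The Rieske protein Uqcrfs1, the iron-sulfur subunit of complex III, had 7430 and 9213 (-0.31 ± 0.16). Each of these differences is within 2 standard errors. Sdhd, a heme-binding membrane anchor of complex II printed as 10 spots, had 5999 with deferoxamine and 7282 without (-0.28 ± 0.08), which is beyond them. Cycs, cytochrome c itself, had 10550 with deferoxamine and 9636 without (0.13 ± 0.14), and its other probe read -0.03. The 11 iron-holding members had a median of -0.22 and the 68 measured subunits without iron one of -0.16, a gap of -0.06 that lay between -0.11 and -0.04 over the settings.

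All 4 members called lower in FAO cells owed the call to 1 spot inside a noisy block of the deferoxamine array. Atp5mc3, one of the genes for the c ring of ATP synthase, had spots of 20516 and 6.49 with deferoxamine, against 20585 and 21709 without. Ndufa1, an accessory subunit of complex I, had 7902 and 6.28, against 8696 and 7647. Ndufa4, which is part of complex IV despite its name, had 23904 and 2064, against 24841 and 26023. In each of these 3 the spot outside the noisy block lay close to the untreated spots. Ndufs8, an iron-sulfur core subunit of complex I, had 1449 and 527 with deferoxamine, against 2175 and 2332 without, so that both of its spots were low. With the noisy spot the differences were -5.86 for Atp5mc3, -5.19 for Ndufa1, -1.86 ± 0.16 for Ndufa4 and -1.37 ± 0.26 for Ndufs8. Without it they were -0.08, -0.08, -0.12 and -0.67. For Atp5mc3 and Ndufa1 the noisy spot was below background and the other above it, so the values with it are averages of unlike spots. Next came Ndufv3 at -0.93 ± 0.23, an accessory subunit beside the NADH site of complex I, whose only deferoxamine spot was also in a noisy block and whose other probes read -0.06 and 0.19. Cox5b, a zinc-binding subunit of complex IV, had 19649 with deferoxamine and 29318 without (-0.58 ± 0.14). The highest subunits measured on both arrays were Cox6b2 at 0.50 ± 0.37, Uqcrq at 0.43 ± 1.25 and Cox4i2 at 0.30 ± 0.26, all within 2 standard errors of 0.

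**Figure D1:**
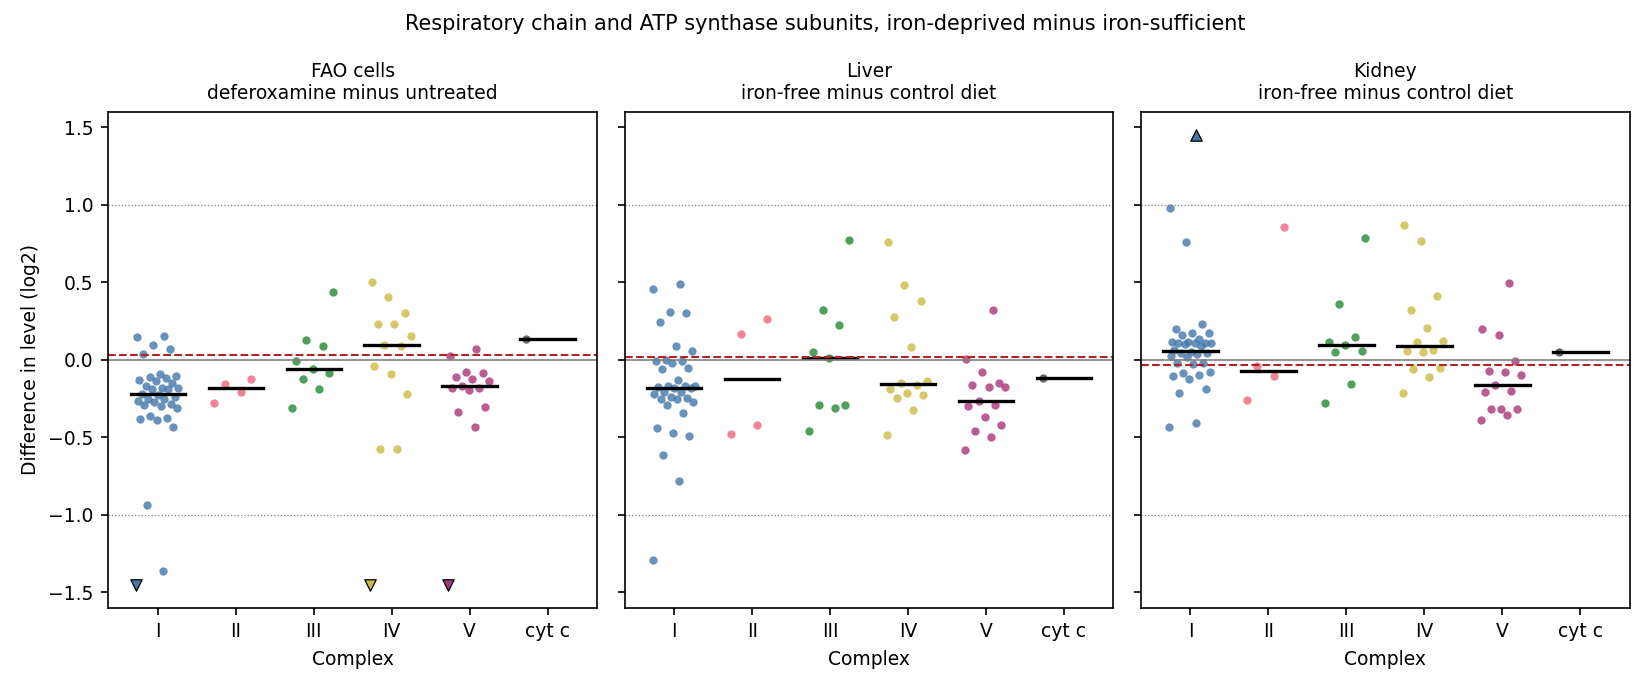
Log2 difference of each subunit, iron-deprived minus iron-sufficient, by complex, in FAO cells, liver and kidney; black bars are medians, the dashed line is the median of all genes, dotted lines mark 2-fold, and triangles stand for values beyond the axis. In FAO cells 31 of 36 subunits of complex I lie below 0, and ATP synthase has medians of -0.17, -0.27 and -0.16 in the 3 panels (in liver and kidney the sign turned when each array was scaled to its own detected probes).

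In liver, the iron-free diet went with slightly lower subunit levels under the scaling used here, most of all in ATP synthase. Of 86 measured members 62 were below 0, with a median of -0.18, against 0.02 over 10172 genes. The 1265 bright genes, at or above the 25th percentile of the members' signal, had a median of -0.12. At least 2-fold apart was 1 member, which was lower, where 6.52% of all genes were higher and 3.01% lower. In all, 91.9% of the members lay within 0.5 of 0, against 70.8% of all genes. The direction hangs on the scaling: when each array was brought to the median of its own detected probes, all genes moved up by 0.58 and the members' median became 0.40. Relative to all genes the members stayed lower in every setting, by medians of -0.21 to -0.03.

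In ATP synthase 13 of 15 subunits were below 0 in iron-free liver, with a median of -0.27, or -0.29 to -0.12 relative to all genes over the settings. Atp5f1b, the catalytic β subunit of the F1 head, had 6233 in iron-free and 8355 in control liver (-0.42 ± 0.12). Atp5f1c, the rotating shaft of F1, had 8680 in iron-free and 12284 in control liver (-0.50 ± 0.27). The 3 genes for the c ring, the rotor in the membrane, were all below 0, at -0.27 for Atp5mc1, -0.37 for Atp5mc2 and -0.46 for Atp5mc3. In complex I 29 of 36 subunits were below 0 (median -0.18), in complex IV 9 of 14 (-0.16), in complex II 2 of 4 (-0.13) and in complex III 4 of 9 (0.01).

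All 7 iron-sulfur subunits were below 0 in iron-free liver and 3 of the 4 heme-binding members were, and all 11 turned above 0 when arrays were scaled to their own detected probes. Sdhb had 6888 in iron-free and 9606 in control liver (-0.48 ± 0.25), the lowest of the 11. Uqcrfs1 had 9932 in iron-free and 13651 in control liver (-0.46 ± 0.27). Sdhd had 12890 in iron-free and 17241 in control liver (-0.42 ± 0.12). At the other end stood Sdhc, the second heme-binding anchor of complex II, with 5524 in iron-free and 4616 in control liver (0.26 ± 0.25), or -0.28 without a noisy spot. Ndufs1 had 3793 in iron-free and 3954 in control liver (-0.06 ± 0.25), a difference well inside its error. The 11 iron-holding members and the 68 measured subunits without iron both had a median of -0.18, and their gap lay between -0.10 and 0.03 over the settings.

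The only liver call was Ndufv3, with a single spot of 30428 in iron-free and 74456 in control liver (-1.29 ± 0.38). Its other probes read -0.38 and -0.23. The next lowest were Ndufb7, an accessory subunit of complex I, at -0.78 ± 0.27, and Ndufb4 at -0.61 ± 0.38, whose only control spot lay in a noisy block. The highest were Uqcrq, an accessory subunit of complex III, with 857 in iron-free and 502 in control liver (0.77 ± 0.39), and Cox8b, the muscle isoform of a small complex IV subunit. Cox8b had 76.3 in iron-free liver and 39.5, below background, in control liver, a difference of at least 0.76.

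Iron-free liver also differed from control liver in markers of other cells. At least 2-fold higher were 6 of 7 measured erythroid markers, 6 of 7 proliferation markers and 3 of 7 leukocyte markers. The summed signal of the 8 proliferation genes was 6414 in iron-free and 797 in control liver, with 7 and 3 of them above background. The 9 erythroid genes summed to 436126 in iron-free and 329573 in control liver, with 7 and 6 above background. The 7 skeletal muscle markers summed to 452 in iron-free and 240 in control liver, with 2 and 1 above background. Their part in the members' values was not tested.

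In kidney, the iron-free diet left most subunits near their control level, with ATP synthase a little lower and complexes I, III and IV a little higher. Of 86 measured members 48 were above 0 and 38 below, with a median of 0.05, against -0.03 over 8952 genes. At least 2-fold apart was 1 member, which was higher, where 3.11% of all genes were higher and 1.26% lower. That call was Ndufb6, an accessory subunit of complex I, with spots of 19829 and 19916 in iron-free kidney, against 20807 and 29.97 in control kidney. The last spot lay in a noisy block, and without it the difference was -0.06 instead of 4.65. In all, 89.5% of the members lay within 0.5 of 0, against 84.3% of all genes. Among 918 bright genes, at or above the 25th percentile of the members' signal, the share was 91.5%. At least 2-fold higher were 2 of 7 measured erythroid markers and 0 of 4 proliferation markers.

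ATP synthase had 12 of 15 subunits below 0 in iron-free kidney, with a median of -0.16 (-0.21 to 0.04 over the settings). Atp5f1b had 9672 in iron-free and 12693 in control kidney (-0.39 ± 0.10), but read between -0.48 and 0.57 over the settings. Atp5f1c had 12469 in iron-free and 15998 in control kidney (-0.36 ± 0.21), between -0.39 and -0.10. Complexes I, III and IV had medians of 0.06, 0.09 and 0.09, and complex II one of -0.07. The median of ATP synthase minus that of complex IV was -0.25 and lay between -0.29 and -0.14 over the settings. The same gap was -0.26 in FAO cells (-0.26 to -0.11) and -0.11 in liver (-0.22 to -0.02), so ATP synthase was the lower of these complexes in each of the 3 contrasts.

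In kidney the core subunits stood lower than the accessory ones. Of the 13 core subunits of complexes I to III, 10 were below 0 on the iron-free diet (median -0.10), and of the 50 measured accessory subunits of complexes I, III and IV, 39 were above 0 (0.10). The core median took either sign over the settings, from -0.13 to 0.10, and from 2 to 11 of the 13 were below 0. The gap of -0.20 lay between -0.20 and -0.16 over the 12 settings. It was -0.08 in FAO cells (-0.23 to -0.07) and -0.08 in liver (-0.11 to -0.07). Of the iron-sulfur subunits, 6 of 7 were below 0 in kidney, or 0 to 7 over the settings, and every one of the 7 was within 2 standard errors of 0. Ndufs7, an iron-sulfur core subunit near the ubiquinone site of complex I, had 8819 in iron-free and 9623 in control kidney (-0.13 ± 0.18). Cyc1, the heme-binding cytochrome c1 of complex III, had 42864 in iron-free and 33432 in control kidney (0.36 ± 0.21), which is also within 2 standard errors of 0. Sdhc had 13231 in iron-free and 7301 in control kidney (0.86 ± 0.27), or 0.17 without a noisy spot.

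Several small accessory subunits were among the highest in iron-free kidney, beside Sdhc. Ndufb11, of the membrane arm of complex I, had 21798 in iron-free and 11063 in control kidney (0.98 ± 0.21, and 0.95 to 1.18 over the settings). Cox7c of complex IV, printed as 1 spot, had 3992 in iron-free and 2191 in control kidney (0.87 ± 0.25). Ndufs5 of complex I had 41617 in iron-free and 24643 in control kidney (0.76 ± 0.21), but its other probe read 0.12. Cox7a2 had 31825 in iron-free and 18692 in control kidney (0.77 ± 0.21), or 0.22 without a noisy spot. Among the lowest was Ndufab1, the mitochondrial acyl carrier protein that is also part of complex I, with 8726 in iron-free and 11771 in control kidney (-0.43 ± 0.25).

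The 12 members printed as 10 spots give the smallest spot errors: Ndufa6, Ndufb3, Ndufb5, Ndufb8, Ndufb9, Ndufs3 and Ndufv2 of complex I, Sdhd, Cox7b and Cox8a, and Atp5f1b and Atp5pb of ATP synthase. With deferoxamine all 12 were below 0 in FAO cells, 11 of them by more than 2 standard errors of their own spots, from -0.38 ± 0.04 for Ndufb9 to -0.04 ± 0.04 for Cox8a, with a median of -0.20. In iron-free liver 11 of 12 were below 0, 9 of them by more than 2 standard errors, with a median of -0.27 that shares the dependence on scaling given above. The lowest in liver was Ndufs3, a core subunit of complex I, at -0.49 ± 0.08. The 1 above 0 was Cox7b at 0.28 ± 0.25, and the difference between its spot medians was -0.16. In iron-free kidney 7 were below 0 and 5 above, with 3 and 2 beyond 2 standard errors. Atp5f1b at -0.39 ± 0.05 and Atp5pb, a stalk subunit of ATP synthase, at -0.16 ± 0.05 were among the 3, with Ndufv2 at -0.11 ± 0.05. These errors cover only the scatter of spots within an array, not the spread between arrays or samples.

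**Figure D2:**
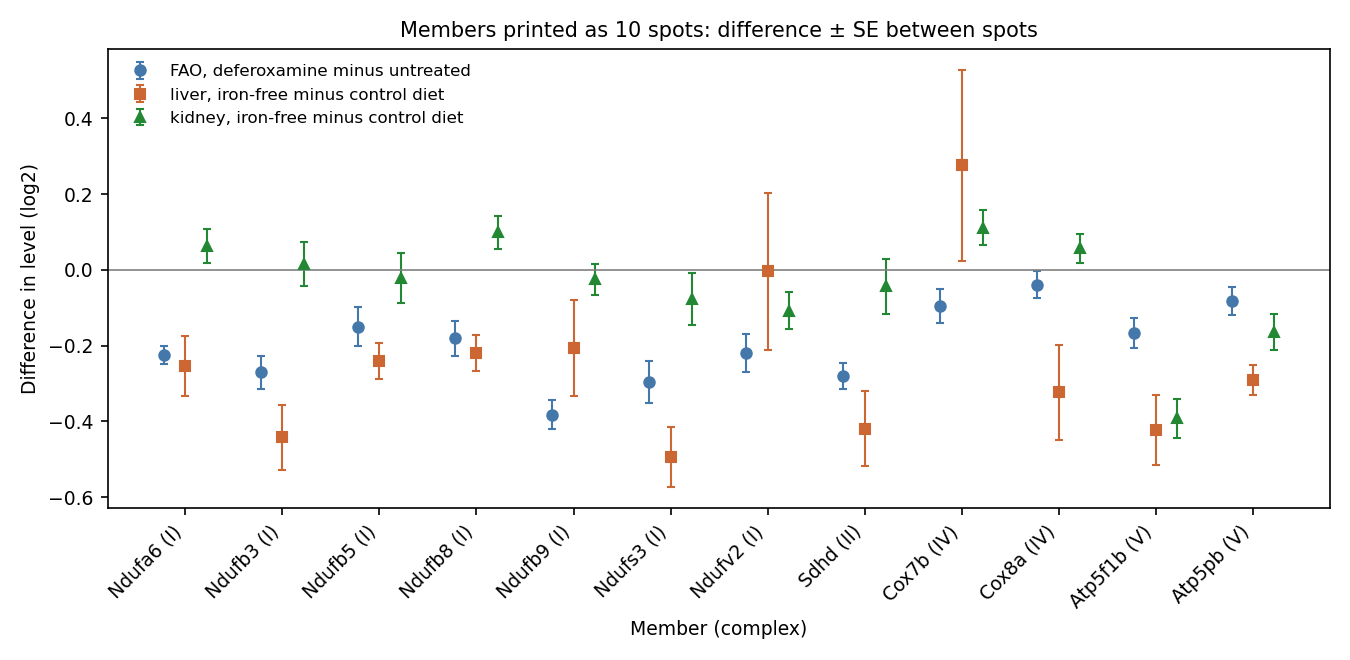
Log2 difference, with the standard error between the probe's own spots, for the 12 members printed as 10 spots, iron-deprived minus iron-sufficient, in FAO cells, liver and kidney. All FAO points lie between -0.38 and -0.04 (Cox8a turned sign under 1 scaling), the liver points reach -0.49 under the scaling used, and the kidney points lie on both sides of 0 with Atp5f1b lowest at -0.39.

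Kidney had higher levels than liver of cytochrome c, the core subunits and the F1 head of ATP synthase, on both diets under the scaling used, though the members' medians turned below 0 when each array was scaled to its own detected probes. On the control diet 9 of 86 measured members were at least 2-fold higher in kidney and 4 lower, where 26.6% of all genes were higher and 14.9% lower. On the iron-free diet 8 were higher and 1 lower, where 24.5% of all genes were higher and 13.8% lower. The members' medians were 0.32 on the control diet and 0.48 on the iron-free diet, against 0.21 and 0.18 for all genes, and ranged from -0.11 to 0.49 and from -0.34 to 0.70 over the settings. Both contrasts use different arrays and share no sample. Across the 86 members they correlated at r = 0.57, or 0.78 over 83 members without noisy spots, as a description across genes measured on the same 4 arrays.

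Cycs, Atp5po, Ndufs1 and Cox8b were at least 2-fold higher in kidney on both diets and Uqcrq lower, where 20.4% of all genes were higher and 12% lower on both. Cycs had signals of 57714 in iron-free and 55682 in control kidney, 17941 in iron-free and 19476 in control liver, and 10550 and 9636 in FAO cells with and without deferoxamine. Both kidney arrays stood above all the others, at 1.52 ± 0.29 over liver on the control diet and 1.69 ± 0.17 on the iron-free diet, and the other Cycs probe read 1.29 and 1.6. Over the settings the Cycs difference stayed between 1.08 and 1.81 on the control diet and between 0.87 and 1.99 on the iron-free diet. Atp5po, the stalk subunit that confers oligomycin sensitivity, had 82834 in iron-free and 88871 in control kidney, 30114 in iron-free and 33978 in control liver, and 26097 and 28398 in FAO cells with and without deferoxamine. It was 1.39 ± 0.29 higher in kidney than in liver on the control diet and 1.46 ± 0.17 on the iron-free diet. Ndufs1 had 7766 in iron-free and 8309 in control kidney, against 3793 in iron-free and 3954 in control liver, differences of 1.03 ± 0.13 and 1.07 ± 0.32. The sign of all 3 held in every setting, but the 2-fold call did not. Ndufs1 ranged from 0.64 to 1.23 on the control diet and from 0.22 to 1.12 on the iron-free diet over the settings. Atp5po ranged from 0.95 to 1.63 on the control diet and from 0.65 to 1.72 on the iron-free diet.

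Cox8b and Uqcrq are the dim members of this set, and the Uqcrq probe was printed as 1 spot. Cox8b had 209 in iron-free and 157 in control kidney, against 76.3 in iron-free liver and 39.5, below background, in control liver. It was 1.46 ± 0.51 higher in kidney on the iron-free diet and at least 1.80 higher on the control diet, and it was below background in FAO cells. The muscle markers summed to 359 in iron-free and 335 in control kidney, with 1 of 7 above background on each, beside the liver sums given above, and their part in Cox8b was not tested. Uqcrq had 314 in iron-free kidney and 182, below background, in control kidney, against 857 in iron-free and 502 in control liver. The difference was -1.45 ± 0.28 on the iron-free diet and -1.46 or lower on the control diet. Over the settings Cox8b went as low as 0.63 on the control diet and 0.64 on the iron-free diet, and Uqcrq lay between -1.90 and -0.48 on the control diet.

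**Figure D3:**
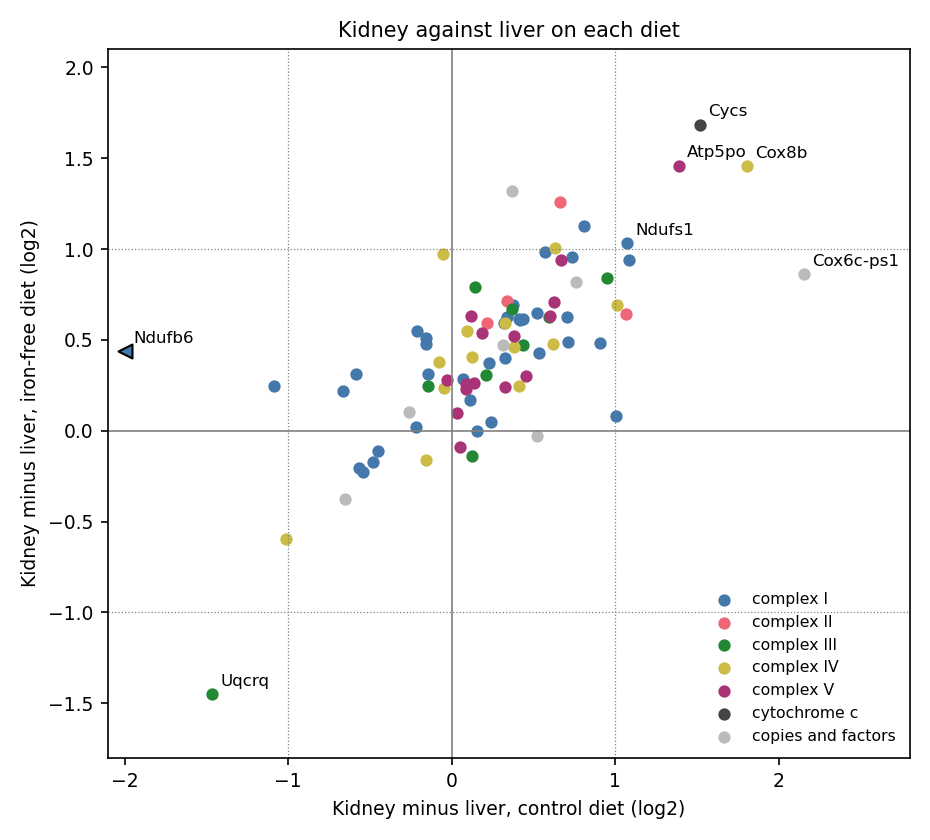
Kidney minus liver log2 difference of each member on the control diet (x axis) and the iron-free diet (y axis), coloured by complex; dotted lines mark 2-fold, and the arrow at the left edge stands for Ndufb6, whose control-diet value of -4.39 rests on a noisy spot. For Cox8b and Uqcrq the control-diet value is a bound. Cycs, Atp5po, Cox8b and Ndufs1 lie beyond 2-fold at the upper right and Uqcrq at the lower left.

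The core subunits stood higher in kidney relative to liver than the accessory ones did, though the medians of both depend on the scaling. All 13 core subunits of complexes I to III were above 0 on the control diet (median 0.53) and 12 of 13 on the iron-free diet (0.67), while the accessory subunits had medians of 0.17 and 0.42. The core minus accessory gap was 0.36 on the control diet (0.25 to 0.51 over the settings) and 0.25 on the iron-free diet (0.20 to 0.28). With arrays scaled to their own detected probes, the core medians were 0.09 on the control diet and -0.14 on the iron-free diet, and the accessory ones -0.27 and -0.39. All 11 iron-holding members were above 0 on both diets, with medians of 0.53 and 0.71, against 0.20 and 0.42 for subunits without iron. When arrays were scaled to their own detected probes, 6 of the 11 stayed above 0 on the control diet and 4 on the iron-free diet, while the gap to subunits without iron stayed at 0.21 or more in all 12 settings.

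Sdha, the flavoprotein of complex II that oxidises succinate, had 15635 in iron-free and 18699 in control kidney, against 10020 in iron-free and 8925 in control liver. It was 0.64 ± 0.17 higher in kidney on the iron-free diet and 1.07 ± 0.27 on the control diet. The 5 subunits of the F1 head were all above 0 on both diets (medians 0.60 and 0.63), and the 3 genes of the c ring had medians of 0.09 and 0.23. The other control-diet calls upward were Ndufs4, Cox5a and Ndufab1, between 1.0 and 1.09, and the copy Cox6c-ps1 at 2.15 ± 0.30. On the iron-free diet the other upward calls were Sdhc at 1.26 ± 0.17, Ndufa7, an accessory subunit of complex I, at 1.13 ± 0.25, Cox8a at 1.01 ± 0.08 and the copy Ndufb4l1 at 1.32 ± 0.13. The other downward calls on the control diet were Ndufb6, by its noisy spot, Ndufv3, by the single liver spot given above and other probes read -0.40 and 0.84, and Cox6b2, the testis isoform of a complex IV subunit, at -1.02 ± 0.39.

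**Figure D4:**
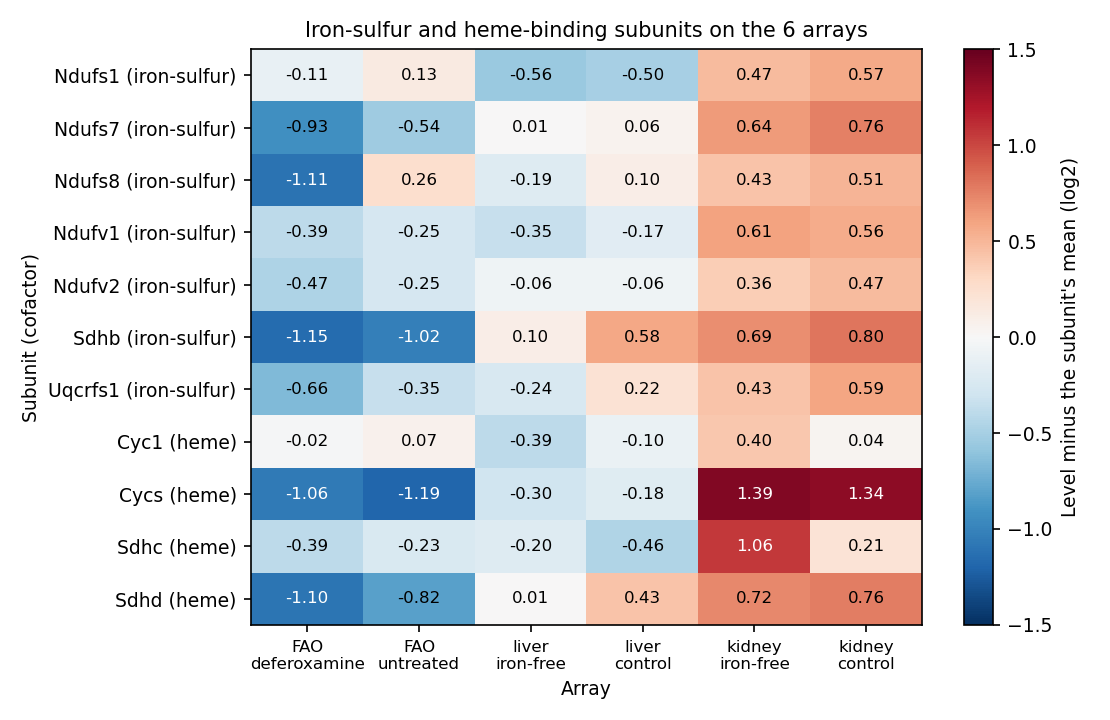
Level of the 7 iron-sulfur and 4 heme-binding members on each of the 6 arrays, as log2 scaled signal minus the member's own mean over the arrays; colour and printed number show the same value. Each member is higher in kidney than in liver on the same diet under the scaling used, and Cycs differs most, by 1.52 on the control diet and 1.69 on the iron-free diet.

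The median subunit level was lower in FAO cells than in liver, while the share of members called lower was not far from that of all genes. Untreated FAO cells were at least 2-fold lower than control liver in 31 of 85 measured members and higher in 0, where 27.8% of all genes were lower and 27.7% higher. Cells with deferoxamine were lower than iron-free liver in 30 of 86 and higher in 0, where 29.4% of all genes were lower and 25.5% higher. The members' medians were -0.64 and -0.77, against 0.18 and 0.09 for all genes. Bright genes, at or above the 25th percentile of the members' signal, had medians of -0.36 and -0.09. Lower in both pairs were 24 members, where 23.2% of all genes were lower in both. When each array was scaled to its own detected probes, the untreated cells had 9 members lower and 7 higher in place of 31 and 0. Of 11025 genes measured under that scaling, 2230 were lower and 4545 higher. The median of -0.64 moved between -0.84 and -0.06 over the settings, and relative to all genes between -0.87 and 0.33, the last with dim probes kept. The contrasts share no array and correlated at r = 0.66 over 85 members, or 0.93 over 81 without noisy spots, as a description across genes.

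The 24 members lower in both pairs were Atp5f1e, Atp5mc1, Atp5me, Atp5mg and Atp5pf of ATP synthase, Sdhb and Sdhd of complex II, Uqcr10, Uqcr11, Uqcrh and Uqcrq of complex III, Cox5b, Cox6b2, Cox7b and Ndufa4 of complex IV, and Ndufa1, Ndufa2, Ndufa3, Ndufa5, Ndufa6, Ndufb3, Ndufb7, Ndufc1 and Ndufv3 of complex I. Ndufb3, printed as 10 spots, read -1.71 ± 0.15 against control liver and -1.54 ± 0.08 against iron-free liver.

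The accessory subunits stood lower than the core in FAO cells against liver. In untreated FAO cells against control liver, the 49 measured accessory subunits had a median of -0.82 and the 13 core subunits one of -0.23, a gap of 0.59 (0.24 to 0.60 over the settings). With deferoxamine against iron-free liver the gap was 0.51 (0.34 to 0.57). The complexes' medians against control liver were -0.54 for I, -0.93 for II, -1.12 for III, -0.76 for IV and -0.85 for ATP synthase. Sdhb was the lowest iron-sulfur subunit, at -1.6 ± 0.25 against control liver and -1.25 ± 0.16 with deferoxamine against iron-free liver. Sdhd read -1.24 ± 0.12 and -1.10 ± 0.08 in the same 2 contrasts. Ndufs1 and Atp5f1b stood on the other side, at 0.63 ± 0.25 and 0.71 ± 0.12 against control liver and 0.45 ± 0.16 and 0.96 ± 0.06 against iron-free liver. Cycs read -1.02 ± 0.27 and -0.77 ± 0.14, but its other probe read -0.08 and -0.29.

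FAO cells also differed from liver in the marker lists. All 10 hepatocyte markers were at least 2-fold lower and all 8 proliferation markers at least 2-fold higher in untreated FAO cells than in control liver. The hepatocyte list summed to 157347 in untreated FAO cells and 1567490 in control liver, with 9 and 10 of its 10 genes above background. The proliferation list summed to 69160 in untreated FAO cells and 797 in control liver. Their part in the subunit differences was not tested.

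**Figure D5:**
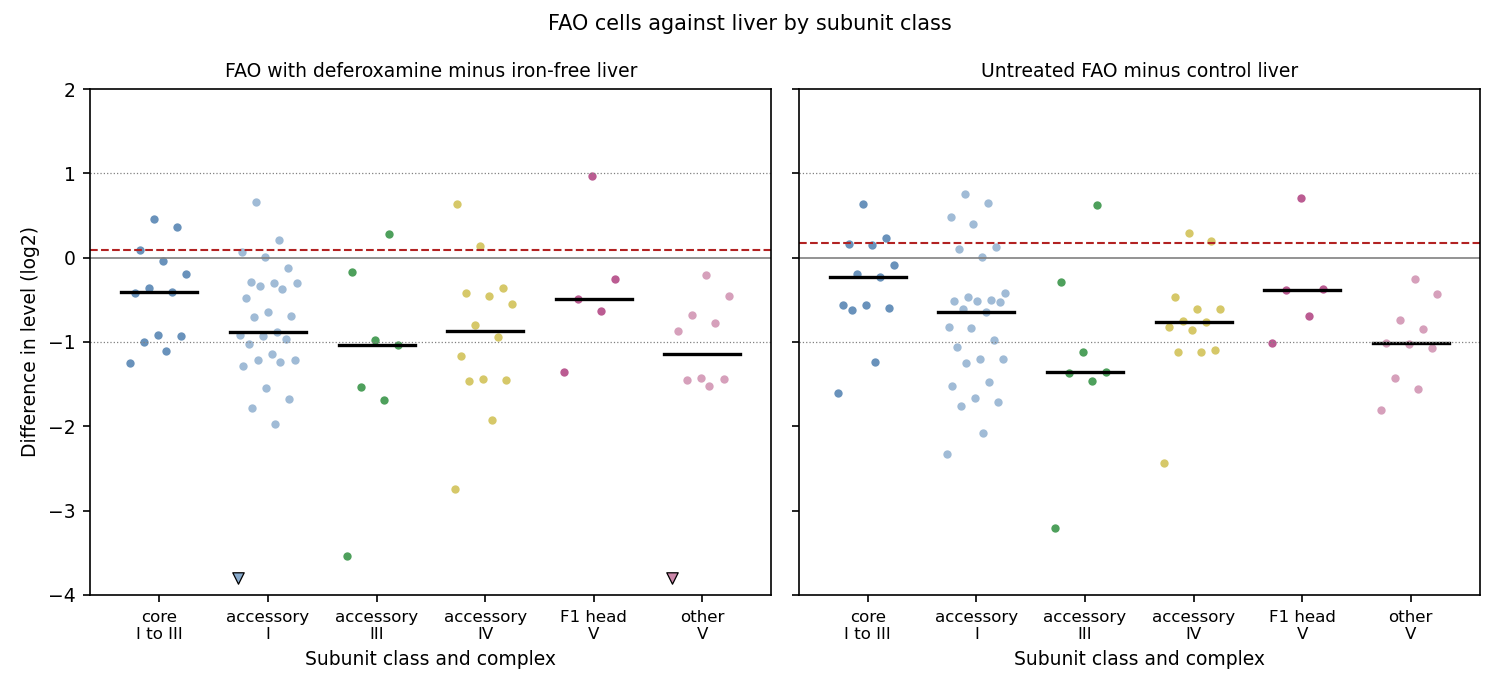
FAO minus liver log2 difference of each subunit by class and complex, with deferoxamine-treated cells minus iron-free liver on the left and untreated cells minus control liver on the right; black bars are medians, the dashed line is the median of all genes, dotted lines mark 2-fold, and triangles stand for values below the axis (Ndufa1 and Atp5mc3, by their noisy spot). The core of complexes I to III has medians of -0.40 on the left and -0.23 on the right, above those of each accessory class under the scaling used, and Atp5f1b is the highest point of the F1 head, at 0.96 and 0.71.

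Among isoform pairs, no measured form stood 2-fold apart under iron deprivation, apart from Atp5mc3 and Ndufa4 in FAO cells, each by a noisy spot. Ndufa4l2, the form paired with Ndufa4, was not among the members. Cox4i1, the common form of complex IV subunit 4, had 51820 and 48608 in FAO cells with and without deferoxamine, 71185 and 67142 in iron-free and control liver, and 99079 and 102985 in iron-free and control kidney. Cox4i2, the form known to be induced in low oxygen, had 961 and 781, 1280 and 1411, and 1665 and 1335 in the same order of arrays. Its differences of 0.30 ± 0.26, -0.14 ± 0.26 and 0.32 ± 0.20 are all within 2 standard errors of 0. Cox6a1, the liver form of subunit 6a, had 81071 and 76131 in FAO cells with and without deferoxamine, 104469 and 115978 in iron-free and control liver, and 157719 and 145103 in iron-free and control kidney. Its muscle form Cox6a2 was above background only with deferoxamine, at 28.4. Untreated FAO cells had 21.5, iron-free liver 46.6 and control kidney 49.1, all below background there, so the call does not mark the highest signal. Members of the c ring, which 3 genes encode for the same mature protein, differed between iron-free and control kidney by -0.20 ± 0.21 for Atp5mc1, -0.01 ± 0.21 for Atp5mc2 and -0.32 ± 0.21 for Atp5mc3, whose other probe read 0.36.

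Among other genes of the pathway, mitochondrial targets of hypoxia-inducible factor stood apart in FAO cells by size. Of the 8 listed, 6 were measured, with a median of 1.02. Against 4.05% of all genes, 3 of the 6 were at least 2-fold higher with deferoxamine. They were Bnip3 at 1.5 ± 0.15 and Bnip3l at 1.07 ± 0.15, both receptors for mitophagy, and Higd1a at 1.21 ± 0.55, a small protein that binds complex IV. Bnip3 had 16846 with deferoxamine and 5975 without. None of 5 measured was called in liver (median -0.14) and none of 4 in kidney (0.39). Assembly factors had 0 higher and 1 lower of 40 in FAO cells (median -0.19), with that 1, Cox19, resting on a noisy spot. They had 0 called of 39 in liver (-0.09) and 0 of 35 in kidney (-0.03).

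The 14 genes of the TCA cycle had 0 called in any of the 3 iron contrasts, with medians of -0.17 in FAO cells, -0.15 in liver and -0.08 in kidney, close to those of the subunits in FAO cells and liver. Genes of mitochondrial iron and heme supply had 0 higher and 1 lower of 19 in FAO cells (median -0.22). That 1 was Iscu, the scaffold on which iron-sulfur clusters are built, at -1.76 ± 0.26, or -0.60 without a noisy spot. In liver 1 of 17 was lower, Iba57, a late factor of cluster assembly, at -1.24 ± 0.38, whose only control spot was in a noisy block, and in kidney 0 of 17 were called. Mitochondrial content markers had 0 called of 15 in FAO cells and in kidney, and 1 higher and 1 lower in liver. Without noisy spots 1 was higher and 0 lower in liver. Regulators of mitochondrial biogenesis had 0 called of 17 in FAO cells and 0 of 16 in kidney, and 1 lower of 15 in liver, Polg, the mitochondrial DNA polymerase, at -1.11 ± 0.28. Without noisy spots 3 of these regulators were lower in liver. Genes of uncoupling and electron entry had 0 called of 7 in FAO cells and in liver and 1 of 8 in kidney, Gpd2, which feeds electrons from glycerol phosphate, at 1.14 ± 0.24.

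Between kidney and liver on the control diet, 5 of 14 TCA cycle genes were at least 2-fold higher in kidney and 0 lower (median 0.57). Over all genes 26.6% were higher and 14.9% lower in this contrast. The 5 higher TCA cycle genes of 14 are somewhat above that share, in a short list. Counts of the other lists given here lie near or below it. The TCA cycle genes included Idh2, a mitochondrial isocitrate dehydrogenase, at 2.18 ± 0.29. Of 16 measured biogenesis regulators 3 were higher and 2 lower. Esrra, which encodes a receptor that binds the element searched above, had 7162 in kidney and 1960 in liver (1.87 ± 0.15, or 1.53 without noisy spots). Ppargc1a, a coactivator of mitochondrial biogenesis, was at least 2.92 higher, since its liver signal was below background. Assembly factors had 6 higher and 2 lower of 35 (median 0.19), and mitochondrial content markers 4 higher and 0 lower of 15 (0.41).

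The 7 members that are not subunits, by their present names, are Atp5hl1, Cox6c-ps1, Dmac2, Dmac2l, Ndufa10l1, Ndufa7l and Ndufb4l1. Ndufa7l keeps its array symbol, since its gene ID was not in the RefSeq table. Cox6c-ps1 had the highest value of any member in FAO cells (0.68 ± 0.26) and the lowest in kidney, with 1242 in iron-free and 2440 in control kidney (-0.97 ± 0.19). Probes of such copies can share sequence with the parent gene, so their values and those of Cox6c, Ndufb4, Ndufa7 and Ndufa10 are uncertain, as are those of Ndufa13 and Ndufs6, whose gene IDs are now pseudogenes. Some subunits carried array symbols outside the rule. Of these Cox6b1 read 0.02 in FAO cells, 0.02 in liver and 0.27 in kidney, and Atp5if1, the inhibitor of ATP synthase, had 7420 with deferoxamine and 11331 without (-0.61). Atp5if1 was also higher in kidney than in liver, by 2.41 on the control diet and 2.25 on the iron-free diet.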

How the data were processed

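RNA of 6 samples was hybridised to Cy3 one-colour arrays, each sample a pool, and samples were grouped by their titles. Per the file headers, the authors extracted spots on a rat array of design 028279 (build rn4) using Agilent's Feature Extraction, version 10.7.3.1. Per the file headers, the gProcessedSignal column holds a linear intensity from which background was already subtracted. The authors' deposited series table also holds log2 values per probe, which served as an alternative. Its intensity equalled the geometric mean of a probe's spots, within a relative tolerance of 0.0001, for 97.1% to 98.3% of probes.

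Spots marked as outliers (680 to 1215 per array) were dropped, log2 signals averaged over a probe's spots, and arrays brought to a common 75th percentile over 9091 probes above background on all arrays. Where 1 array of a pair was below background the difference is a bound. Exceptions are Atp5mc3, Ndufa1 and Ndufb6, where only the noisy spot was below background. The standard error of a difference pools the scatter of spots in 20 bins of signal, and members with 10 spots also have their own. The 17 members with 1 spot, among them Cox7c, Uqcrq, Cox6b2 and Ndufab1, take theirs only from other probes of like signal. A block of 16 by 16 spots was called noisy where at least 10 spots departed from the other spots of their probes by a median over 0.5 log2. Normexp background correction (limma 3.58.1, R 4.3.3, offset 50) ran on the median signal and background columns. Other steps ran in Python 3.11.15 with numpy 2.4.6 and pandas 2.3.3 and were tested on simulated data.

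Of the members, 87 had their gene ID in the RefSeq table (GRCr8), which gave current symbols, 19 of them changed; build rn4 coordinates are not used. All members by the rule count as named; the text names those called (for FAO cells against liver, those called in both pairs), up to 5 highest and 5 lowest per contrast, the iron-holding subunits, isoform pairs and up to 3 called genes of each pathway list. Examples beyond these were chosen after their values were seen, and some genes are not reported here. The members, lists and comparisons were chosen with earlier results of these data known. The number of arrays, 1 per group, limits the precision, and the contrasts share arrays: each liver and kidney array serves in an iron contrast and in a tissue contrast.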

Additional observations from a re-analysis of the deposited data

How the results depend on the processing

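No paired analysis was possible because each group is 1 array. Of 190 alternative values of the members' medians and counts, 150 stayed within the limits set for calling them unchanged and 40 moved. Of 66 for single members 58 stayed, 7 moved and 1 reversed. When each array was scaled to the median of its own detected probes, the liver median became 0.40 with 5 higher and 0 lower, and kidney had 5 higher. Over all genes, 2120 of 10379 were then higher and 78 lower in liver, and 402 of 9051 were higher in kidney. All liver genes then moved by 0.58 and kidney genes by 0.20, and the share of higher among all called liver genes was 96.5% instead of 68.4%. Under the same scaling control kidney minus control liver had a median of -0.11 with 3 higher and 8 lower. Of 9576 genes 1835 were higher and 2166 lower there. Untreated FAO cells minus control liver had a median of -0.0634 with 7 higher and 9 lower, where 4545 of 11025 genes were higher and 2230 lower. With the 75th percentile over all gene probes the kidney minus liver median was 0.0144 with 4 higher (over all genes 2001 of 9499). With the authors' values it was 0.0121 with 4 higher (over all genes 1999 of 9502). With the median of probes detected on all arrays 4 were higher (over all genes 2184 of 9431). Quantile normalization gave 1 lower in kidney (over all genes 148 of 8927) and 2 lower in kidney minus liver (1744 of 9621). In FAO minus liver it gave -0.35 with 2 higher and 13 lower, where 3147 of 10918 genes were higher and 2765 lower. Normexp gave 2 higher and 0 lower in liver (over all genes 367 and 174 of 9598) and 2 higher in kidney (187 of 8893). It gave 1 lower in kidney minus liver (1237 of 9671) and 2 higher in FAO minus liver (1662 of 9657). Without noisy blocks 0 were lower in FAO cells (over all genes 414 of 10533), 0 higher in kidney (236 of 8896), and Ndufb6 read -0.0562. The median over a gene's probes gave 0 lower in liver (over all genes 297 of 10219). No filter on dim probes gave 1 higher and 2 lower there (1437 and 1769 of 19955), and counting a probe by any bright spot 1 higher (1116 of 11369). At 1.5-fold the counts were 1 higher and 6 lower in FAO cells and 2 higher and 3 lower in liver. In kidney they were 8 higher and 1 lower. They were 23 higher and 7 lower in kidney minus liver, and 5 higher and 48 lower in FAO minus liver. The share of all genes at 1.5-fold is not reported here, so these counts have no comparator. The cause of these shifts was not tested.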
